A study of Mus musculus with 56 samples.

Results

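Immediate early transcription factors were followed in bone marrow progenitors of wild-type mice and of mice that carry 2 leukemia-associated lesions. The set holds 10 genes, picked by symbol out of the 24424 rows of an RNA-seq expression table. They are the AP-1 subunits Fos, Fosb, Jun, Junb and Jund, the AP-1 partner Atf3, the zinc finger factors Egr1, Egr2 and Egr3, and the nuclear regulator Ier2. All 10 were in the table, and the set was chosen with earlier results of these data known. The wild-type (WT) and mutant (T2F3) mice were both of strain C57BL/6. The T2F3 genotype is labelled Tet2-/-Flt3ITD: it lacks the DNA demethylase Tet2 and carries an internal tandem duplication of the receptor kinase Flt3, which lets the receptor signal without its ligand. The labels do not say whether the Flt3 allele is heterozygous, whether the Tet2 loss is limited to blood cells, or how old the animals were. Multipotent progenitors (MPP) had been sorted as lin- Sca+ cKit+ CD48+ CD150- cells, and granulocyte-macrophage progenitors (GMP) as lin- Sca- cKit+ CD34+ CD16/32+ cells. MPP gave 4 libraries from WT and 3 from T2F3 mice and GMP gave 5 and 3, 15 in all, and no further treatment is named. The study profiled 5-hydroxymethylcytosine from few cells, and its RNA-seq libraries allow the genotypes to be compared within each population.

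Immediate early genes are transcribed within minutes of a growth factor, cytokine or stress signal, without new protein synthesis. Signals reach them mainly through MAP kinases, which phosphorylate factors already bound at their promoters, among them the ternary complex factors that sit with SRF on CArG boxes and the CREB and ATF proteins that bind the cyclic AMP response element (CRE). Fos and Jun proteins pair through leucine zippers to form AP-1, Jun proteins can also pair with each other, and ATF3 pairs with Jun proteins and often represses. EGR factors bind GC-rich sites, switch on their own repressors Nab1 and Nab2, and take part in the choice between monocytic and granulocytic fates in myeloid progenitors. The same genes can also respond to enzymatic or mechanical handling of tissue.

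The bases just upstream of the start sites are given for some of the genes, with exact matches to a few signal response motifs. Sites with other letters, or outside the 250 bases, were not looked for. Atf3 is shown because it had the largest genotype difference of the set, and Fos, Fosb and Jun because they deviated together within groups. Sequences are from RefSeq (GRCm38.p6) and not from the libraries, whose build was mm9. Each holds the 250 bases before the start, 5′ to 3′ along the gene, and capitals mark matches to the motifs searched, which are given after them.

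Atf3: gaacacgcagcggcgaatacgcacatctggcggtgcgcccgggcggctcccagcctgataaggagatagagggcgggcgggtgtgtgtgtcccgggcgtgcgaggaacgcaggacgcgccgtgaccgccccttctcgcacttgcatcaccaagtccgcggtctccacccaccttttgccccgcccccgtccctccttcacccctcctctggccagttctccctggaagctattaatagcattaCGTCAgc

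Fos: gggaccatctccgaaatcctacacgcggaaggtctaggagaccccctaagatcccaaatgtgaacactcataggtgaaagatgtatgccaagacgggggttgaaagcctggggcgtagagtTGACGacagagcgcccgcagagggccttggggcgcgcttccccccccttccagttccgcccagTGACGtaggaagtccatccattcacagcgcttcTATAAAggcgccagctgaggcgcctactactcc

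Fosb: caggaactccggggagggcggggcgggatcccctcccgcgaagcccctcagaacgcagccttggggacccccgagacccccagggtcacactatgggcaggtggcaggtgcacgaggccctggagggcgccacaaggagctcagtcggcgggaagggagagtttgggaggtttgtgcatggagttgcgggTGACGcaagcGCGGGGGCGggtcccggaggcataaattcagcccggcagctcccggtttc

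Jun: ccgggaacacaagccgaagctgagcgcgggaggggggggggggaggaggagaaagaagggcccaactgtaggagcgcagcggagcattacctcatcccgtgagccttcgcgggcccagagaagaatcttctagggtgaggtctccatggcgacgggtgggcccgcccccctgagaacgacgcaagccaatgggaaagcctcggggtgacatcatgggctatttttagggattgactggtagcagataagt

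The Atf3 window lies on the minus strand at chr1:191183334-191183583, the Fos window on the plus strand at chr12:85473640-85473889, the Fosb window on the minus strand at chr7:19310046-19310295 and the Jun window on the minus strand at chr4:95052223-95052472. Both strands were searched for the CRE (TGACGTCA), its core (TGACG), the AP-1 site (TGANTCA), an EGR site (GCGNGGGCG), an ETS site (CCGGAA), the CArG box and, as a TATA box, TATAAA. The core lies inside the CRE, so a CRE match also counts as a core match. The CRE core was found once in Atf3, on the opposite strand 7 to 3 bases before the start. It was found at 2 places in Fos, 129 to 125 and 66 to 62 bases before the start, beside TATAAA at 33 to 28 bases. In Fosb it lay 60 to 56 bases before the start and was followed by an EGR site at 50 to 42 bases. The Jun window held none of these letters, which says nothing about the factors that bind there. Of 32817 mouse windows of the same length, 17.7% held the CRE core, 1.55% the whole CRE, 6.75% the AP-1 site, 4.7% the EGR site, 12% the ETS site, 12.4% TATAAA and 1.47% the CArG box. RefSeq entries were matched for 7 of the 10 genes.

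Values were regularized log2 expression, a scale on which the authors' software shrinks genes with few reads toward their mean, so differences of low genes are understated. The files hold no counts, so the depth behind each value is unknown. Levels are not scaled to gene length and are compared only within a gene. Tests were limma contrasts with Benjamini-Hochberg adjustment over the 12133 genes whose average in the 15 libraries was 4 or more, and "higher" or "lower" calls have an adjusted p under 0.05. Of the 10 genes, 6 passed that minimum (Fos, Jun, Junb, Jund, Egr1 and Ier2) and 4 did not (Fosb, Egr2, Egr3 and Atf3). For these 4 the test comes from the same model fitted without the minimum, to 19289 genes. Nothing in the labels says that libraries of a group came from separate animals, so p-values measure the spread between libraries, which may be partly technical.

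Gate and lineage genes followed the sorts in part. Elane, the neutrophil elastase gene of GMP, read 13.22 to 13.51 in MPP libraries and 15.22 to 15.95 in GMP libraries. Slamf1, which encodes the excluded marker CD150, was low, with group means between 1.94 and 2.96, below the minimum of 4. Ly6a, the gene of Sca-1, overlapped between the Sca+ WT MPP (7.53 to 7.90) and the Sca- T2F3 GMP (7.45 to 7.69). Cd48 had a mean of 9.95 in WT MPP and 10.10 in WT GMP. In T2F3 MPP Cd48 was higher than in WT MPP by 1.53 ± 0.17, and Kit differed by -0.92 ± 0.14. Tet2 read 9.71 to 9.89 in WT MPP and 9.67 to 9.90 in T2F3 MPP, and 9.87 to 10.19 against 9.88 to 10.30 in GMP, so its values overlapped. A value for the whole gene does not resolve a deleted part, and it checks nothing about the labels. In 4 libraries (WT replicate 3 and T2F3 replicate 1 of each population) the Y-linked gene Ddx3y read 7.68 to 7.83, against 2.99 to 3.31 in the other libraries. In the same 4 libraries Xist, the RNA of the inactive X chromosome, read 10.86 to 10.92, against 14.03 to 15.18. The labels give no sex.

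Atf3, a stress-induced member of the ATF family that pairs with Jun proteins, was the gene of the set that differed most between the genotypes. In MPP the 4 WT libraries read 2.76, 2.87, 3.04 and 2.99, and the 3 T2F3 libraries 4.61, 5.44 and 5.28. In GMP the 5 WT libraries read 2.88, 2.74, 2.94, 2.75 and 2.87, and the 3 T2F3 libraries 4.41, 5.20 and 4.53. Every T2F3 library lay more than 1 unit above every WT library of its population. The difference was 2.20 ± 0.19 (SE) in MPP, a 4.59-fold higher value (adjusted p = 9.55e-08, limma without the minimum), and 1.88 ± 0.18 in GMP, 3.68-fold higher (adjusted p = 7.52e-07). With any 1 of the 15 libraries left out the difference stayed between 2.03 and 2.44 in MPP and between 1.63 and 2.03 in GMP, and it was called in all 15 runs in both populations. Without the 4 libraries that read Ddx3y it was 2.43 in MPP (adjusted p = 2.37e-06) and 2.05 in GMP (adjusted p = 1.05e-05). In WT mice the populations had almost the same mean, 2.91 ± 0.13 (SD, n = 4) in MPP and 2.84 ± 0.09 (SD, n = 5) in GMP. These WT values are low, and the Atf3 mean over the 15 libraries, 3.69, was below the minimum of 4. The reads behind them are unknown, so both folds are taken from a low baseline with an unstated counting error.

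**Figure D1:**
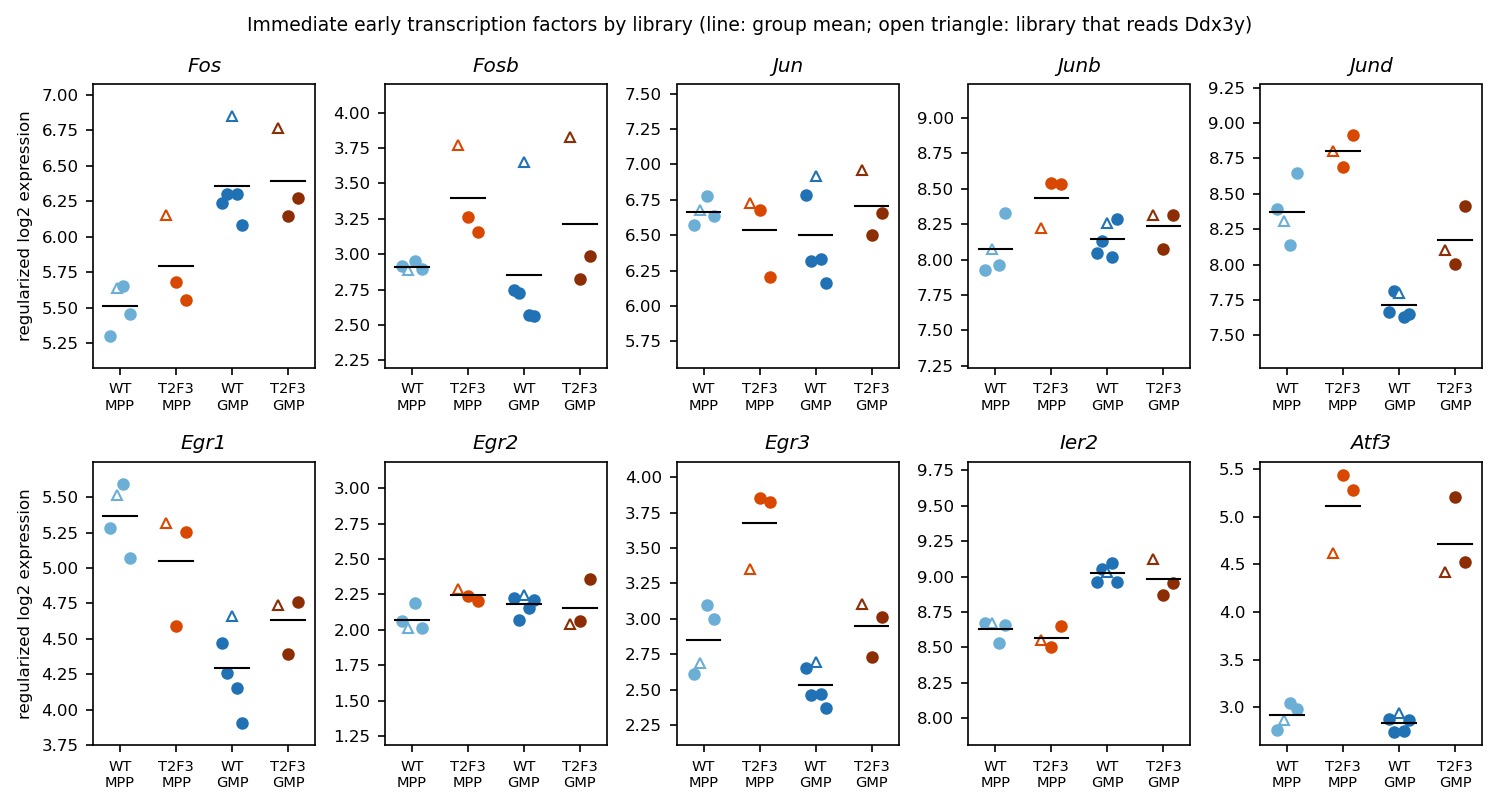
Regularized log2 expression (vertical axes, each covering at least 2 log2 units around its own gene) of the 10 genes in the 15 libraries by group, with 1 point per library and a line at the group mean. Open triangles are the 4 libraries that read Ddx3y. Atf3 sits at 2.74 to 3.04 in all WT libraries and at 4.41 to 5.44 in all T2F3 libraries.

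Markers of dendritic cells moved with genotype beside Atf3. Of 10 such markers (Xcr1, Clec9a, Itgax, Flt3, H2-Aa, H2-Ab1, Cd209a, Siglech, Batf3 and Zbtb46), 8 were higher in T2F3 MPP and 9 in T2F3 GMP, and none was lower. Of all genes tested, 20.7% were higher and 19.6% lower in T2F3 MPP, and 9.25% and 6.04% in T2F3 GMP. The mean level of the 10 markers ran from 7.05 to 7.74 in WT MPP and from 8.96 to 9.85 in T2F3 MPP. In GMP it ran from 6.29 to 6.42 against 8.38 to 8.81. Within the T2F3 libraries, replicate 1 had both the lowest Atf3 value and the lowest dendritic markers in each population: the median marker lay 0.46 below its group mean in MPP and 0.23 below it in GMP. Replicate 2 had the highest of both, with the median marker 0.30 and 0.23 above the group mean. Replicate 1 was also the T2F3 library of each population that read Ddx3y, and the part of this in the ranking was not tested. Monocyte and macrophage markers were also higher: 5 of 7 tested in MPP, where their mean level ran from 7.77 to 7.99 in WT and from 8.30 to 8.99 in T2F3. In GMP 4 of 7 were higher and 1 lower, with mean levels of 8.58 to 8.83 in WT and 9.12 to 9.34 in T2F3. The median deviation of these markers from the group mean was also lowest in replicate 1 of T2F3 MPP (-0.32) and highest in replicate 2 (0.20). In T2F3 GMP it was not, at 0.09 in replicate 1 and -0.19 in replicate 2. In RNA from sorted bulk cells, more cells of a type and more RNA per cell cannot be told apart, and the part of these markers in the Atf3 difference was not tested.

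Among the Jun genes, Jund was higher in T2F3 cells of both populations, and Junb in MPP. JunD is the Jun protein that most cells hold at a steady level and that restrains proliferation, and JunB is an inducible one that restrains myeloid growth. Jund read 8.39, 8.31, 8.14 and 8.65 in WT MPP and 8.80, 8.69 and 8.91 in T2F3 MPP. In GMP it read 7.67, 7.81, 7.80, 7.63 and 7.65 in WT and 8.10, 8.01 and 8.41 in T2F3. The groups did not overlap in either population. The difference was 0.43 ± 0.12 in MPP (1.35-fold, adjusted p = 0.0112) and 0.46 ± 0.11 in GMP (1.38-fold, adjusted p = 0.0114). Both calls rested on replicate 3 of T2F3: without that library the adjusted p was 0.0594 in MPP (difference 0.37) and 0.0678 in GMP (difference 0.34). Without the 4 libraries that read Ddx3y, the MPP difference was 0.41 (adjusted p = 0.0781) and the GMP difference 0.52 (adjusted p = 0.0556).

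Junb read 7.93, 8.08, 7.96 and 8.33 in WT MPP and 8.22, 8.54 and 8.53 in T2F3 MPP. Here WT replicate 5 lay above T2F3 replicate 1, so the groups overlapped. The difference was 0.36 ± 0.12 (1.28-fold, adjusted p = 0.0228), and the adjusted p rose to between 0.0579 and 0.101 when WT replicate 1, WT replicate 4, T2F3 replicate 2 or T2F3 replicate 3 was left out. In GMP Junb ran from 8.02 to 8.28 in WT and from 8.08 to 8.32 in T2F3, a difference of 0.09 ± 0.11 (95% interval from -0.15 to 0.32). Jun, the founding member of the family, ran from 6.57 to 6.78 in WT MPP and from 6.21 to 6.73 in T2F3 MPP. In GMP it ran from 6.17 to 6.92 in WT and from 6.50 to 6.96 in T2F3. Its differences were -0.13 ± 0.18 and 0.20 ± 0.17, neither past the threshold (adjusted p = 0.584 and 0.456).

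Fos and Fosb, the AP-1 subunits that respond fastest, did not pass the test between genotypes in either population. Fos read 5.30, 5.64, 5.65 and 5.45 in WT MPP and 6.15, 5.68 and 5.55 in T2F3 MPP, a difference of 0.29 ± 0.19 (adjusted p = 0.243). In GMP the mean was 6.36 ± 0.29 (SD, n = 5) in WT and 6.40 ± 0.33 (SD, n = 3) in T2F3, a difference of 0.04 ± 0.19 with a 95% interval from -0.35 to 0.43. Fosb was low everywhere, at 2.89 to 2.95 in WT MPP and 3.16 to 3.77 in T2F3 MPP. Although the 3 T2F3 libraries were above the 4 WT libraries, the difference of 0.48 ± 0.25 was not called (adjusted p = 0.168, without the minimum). In GMP Fosb differed by 0.36 ± 0.24 (adjusted p = 0.426).

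The EGR genes differed from each other. Egr3 was higher in T2F3 MPP: its WT libraries read 2.61, 2.69, 3.09 and 3.00 and its T2F3 libraries 3.35, 3.85 and 3.83. The groups were apart, by a difference of 0.83 ± 0.15 (1.78-fold, adjusted p = 0.000511, without the minimum), and the call was made in all 15 runs with 1 library left out. In GMP Egr3 ran from 2.37 to 2.69 in WT and from 2.73 to 3.10 in T2F3. These groups did not overlap either, but the difference of 0.42 ± 0.14 missed the threshold (adjusted p = 0.0750). It was called with library weights (0.54, adjusted p = 0.00826) and in 2 of the 15 runs with 1 library left out. Egr1, the member most often measured as a readout of MAP kinase signalling, read 5.28, 5.52, 5.59 and 5.07 in WT MPP and 5.31, 4.59 and 5.25 in T2F3 MPP, a difference of -0.31 ± 0.20 (adjusted p = 0.221). When libraries were weighted by their quality, this difference was -0.48 and was called lower (adjusted p = 0.0271). In GMP it ran from 3.91 to 4.66 in WT and from 4.39 to 4.76 in T2F3, a difference of 0.34 ± 0.20 (adjusted p = 0.259). Egr2 stayed between 2.01 and 2.36 in the 15 libraries, below the minimum of 4, with differences of 0.17 ± 0.09 in MPP and -0.03 ± 0.09 in GMP. Ier2, a short-lived nuclear protein induced by serum, had narrow groups: 8.53 to 8.67 in WT MPP against 8.50 to 8.65 in T2F3 MPP, and 8.96 to 9.10 against 8.87 to 9.12 in GMP. The 95% interval of its genotype difference ran from -0.23 to 0.10 in MPP and from -0.20 to 0.12 in GMP.

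**Figure D2:**
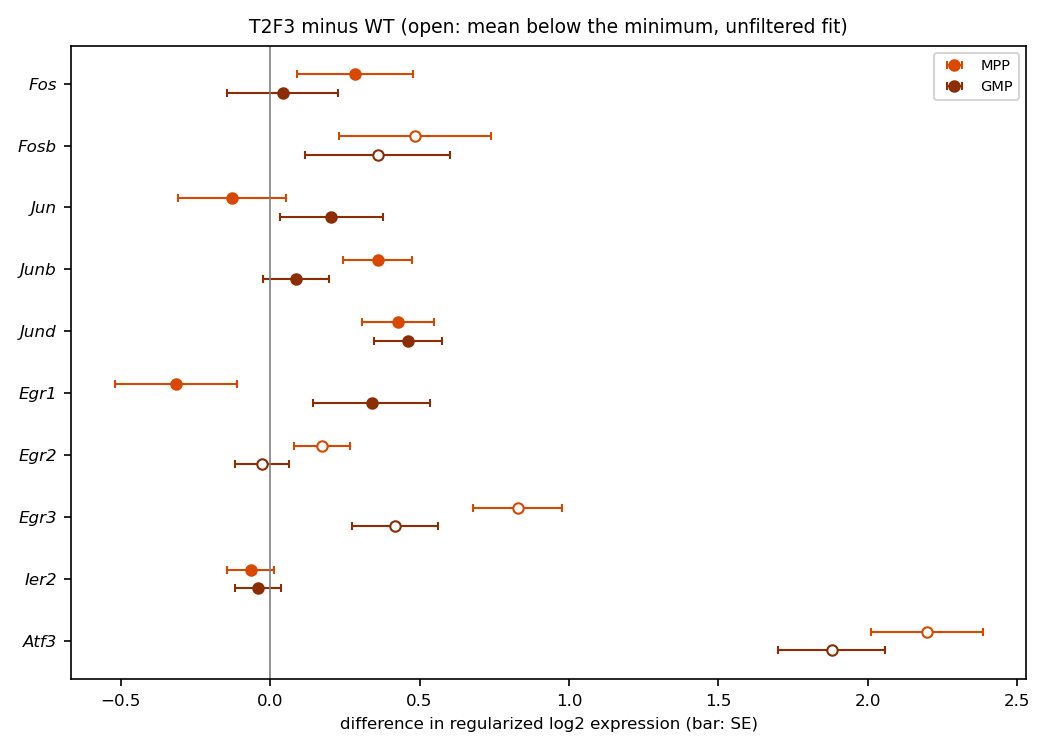
T2F3 minus WT in regularized log2 expression (horizontal axis) for the 10 genes in MPP and GMP, with limma's SE as bars. Filled points are the 6 genes that passed the minimum mean and open points the 4 tested without it. Atf3 lies at 2.20 and 1.88 and Jund at 0.43 and 0.46, while the Ier2 points are at -0.07 and -0.04.

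As counts, 2 of the 6 genes tested were higher in T2F3 MPP and none was lower, where 40.3% of all 12133 genes were called (20.7% higher, 19.6% lower). Of all those calls 51.3% were higher, and 40.2% after each library was centred on its median. Without the minimum, 4 of 10 were called, all of them higher, where 28.2% of all genes were called in either direction. Junb was 1 of the 4, and its adjusted p in that limma fit was 0.0505 after centring and 0.0671 after quantile normalization. In GMP 1 of 6 was higher and none was lower, where 15.3% of all genes were called (9.25% higher, 6.04% lower). There, 2 of 10 were called without the minimum, both higher, where 9.84% of all genes were called in either direction. The genotype groups did not overlap for 5 of the 10 genes in MPP (Fosb, Jund, Egr2, Egr3 and Atf3), as for 39.9% of all 19289 genes, and for 3 in GMP (Jund, Egr3 and Atf3), as for 13.7%. The median difference of the 6 genes was 0.11 in MPP and 0.15 in GMP, against -0.01 and -0.02 over all genes tested. In both populations the count among the 6 genes was therefore near the share of the whole transcriptome that moved.

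The genotype difference itself did not pass the test of a difference between populations for any of the 10 genes (2.26% of all genes passed it), with limma and either gene set. At an unadjusted p under 0.05 there was 1 gene, Egr1. Its T2F3 minus WT difference was -0.31 in MPP and 0.34 in GMP, and the difference of these effects was 0.66 ± 0.28 (adjusted p = 0.223). When libraries were weighted by their quality, this difference was 0.92 and was called (adjusted p = 0.0349), and so was that of Atf3, at -0.72 (adjusted p = 0.0218, without the minimum). With these weights 1494 of the 12133 genes with the minimum passed the test, and 274 without them. The Atf3 effects differed by -0.32 ± 0.26 without weights (adjusted p = 0.570).

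Between the populations, the genes split into those that were higher and those that were lower in GMP. In WT mice Fos and Ier2 were higher in GMP than in MPP, and Egr1 and Jund lower: 4 of 6 tested, where 48.6% of all genes were called (25.4% higher, 23.2% lower). Of all those calls 52.2% were higher, and 42.2% after centring. Fos read 6.24, 6.30, 6.85, 6.30 and 6.08 in WT GMP, and all 5 values lay above the 4 WT MPP values. The step was 0.85 ± 0.17 (1.80-fold, adjusted p = 0.000652). Egr1 read 4.47, 4.26, 4.66, 4.15 and 3.91 in WT GMP, all below the lowest WT MPP value of 5.07. Its step was -1.08 ± 0.18 (2.11-fold lower, adjusted p = 0.000121). Jund was lower by a step of -0.66 ± 0.10 (adjusted p = 7.51e-05), and Ier2 higher by 0.39 ± 0.07 (adjusted p = 0.000249). Steps of Jun (-0.16 ± 0.16) and Junb (0.07 ± 0.10) were not past the threshold, nor, without the minimum (where 35.7% of all genes were called), those of Fosb, Egr2, Egr3 and Atf3. The Egr3 step of -0.32 ± 0.13 was called after centring (-0.38, adjusted p = 0.0186), with library weights (-0.33, adjusted p = 0.0213) and without the 4 libraries that read Ddx3y (-0.41, adjusted p = 0.0294). The Egr2 step was called after quantile normalization (0.26, adjusted p = 0.0164), and that of Fosb without the 4 libraries (-0.27, adjusted p = 0.0438).

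In T2F3 mice 3 of the 6 genes were called, where 22.2% of all genes were (10.5% higher, 11.7% lower). Jund was lower in GMP, with a step of -0.63 ± 0.13 (adjusted p = 0.00154). Ier2 was higher, with a step of 0.41 ± 0.09 (adjusted p = 0.00177), which without the 4 libraries that read Ddx3y was 0.34 and not called (adjusted p = 0.0601). Fos was just past the threshold, at 0.60 ± 0.21 (adjusted p = 0.0467), and its adjusted p was 0.0514 without the minimum and between 0.0518 and 0.226 in 10 of the runs with 1 library left out. Egr1 read 4.74, 4.39 and 4.76 in T2F3 GMP, and its step of -0.42 ± 0.22 was not called (adjusted p = 0.200). Without T2F3 MPP replicate 2, its lowest MPP library, the Egr1 step was -0.65 (adjusted p = 0.0445). Egr3 was lower in T2F3 GMP than in T2F3 MPP by a step of -0.73 ± 0.16 (adjusted p = 0.00300, without the minimum, where 16.4% of all genes were called). The Atf3 step of -0.40 ± 0.20 was called with library weights (-0.80, adjusted p = 0.000319) and not without them (adjusted p = 0.224). The test of whether the steps differ between genotypes is the same as that of the genotype effects between populations, above. Both genotype steps and genotype effects use the same 4 groups and are not independent.

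**Figure D3:**
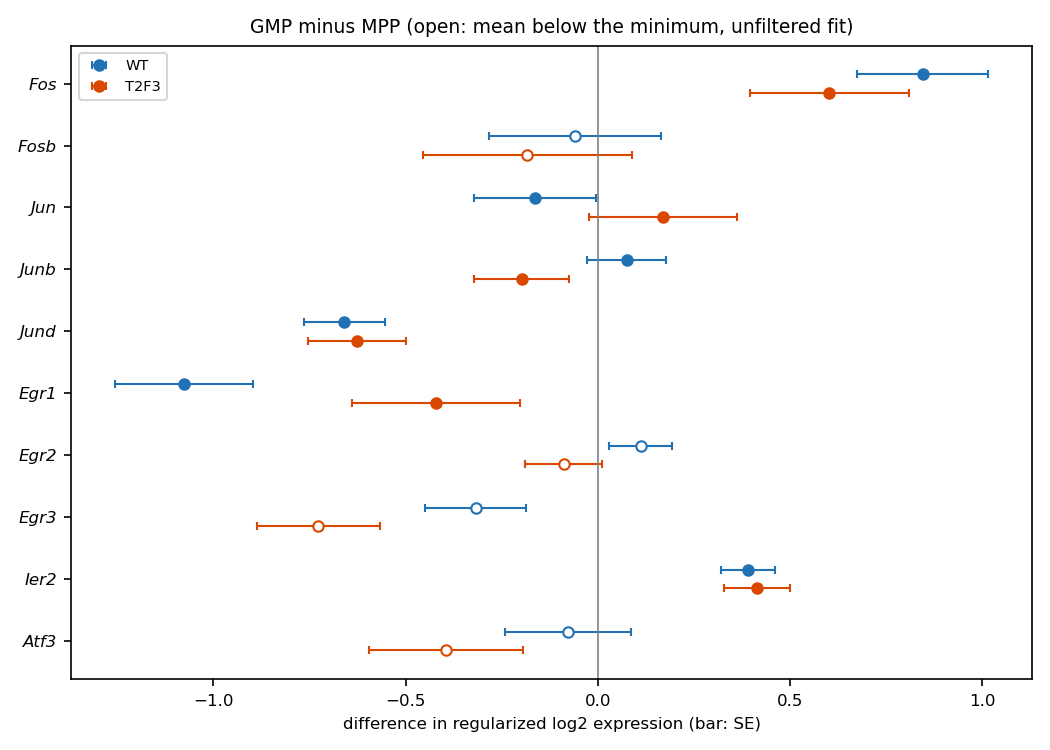
GMP minus MPP in regularized log2 expression (horizontal axis) for the 10 genes in WT and T2F3 mice, with limma's SE as bars. Filled points passed the minimum mean and open points were tested without it. Fos and Ier2 lie to the right of 0 and Jund and Egr1 to the left in both genotypes, with Egr1 at -1.08 in WT and -0.42 in T2F3.

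Ordered by group mean, Atf3, Egr3 and Fosb all ran from T2F3 MPP down through T2F3 GMP and WT MPP to WT GMP, with a gap between the genotypes for Atf3 (4.41 against 3.04). For Egr3 the gap lay between T2F3 MPP and T2F3 GMP (3.35 against 3.10), and the lower 3 groups overlapped with their neighbours. Jund ran from T2F3 MPP through WT MPP and T2F3 GMP to WT GMP, and the middle neighbours overlapped. Ier2 split by population, with both GMP groups above both MPP groups. In Fos, Fosb, Jun, Junb, Egr1 and Egr2 every pair of neighbouring groups overlapped.

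Within groups, Fos, Fosb and Jun were high in the same libraries. In WT GMP replicate 3 Fosb read 3.65, against 2.57 to 2.75 in the other 4 libraries, and Fos 6.85 against 6.08 to 6.30. In T2F3 GMP replicate 1 Fosb read 3.83, against 2.82 and 2.99, and Fos 6.77 against 6.15 and 6.28. Jun was highest in the same 2 libraries of its groups, at 6.92 and 6.96. T2F3 MPP replicate 1 was likewise the highest of its group for Fosb (3.77 against 3.16 and 3.26) and Fos (6.15 against 5.55 and 5.68). WT MPP replicate 3 was not set apart: Fosb read 2.89 there, the lowest of the 4, and Fos 5.64 within a range of 5.30 to 5.65. These are the 4 libraries that read Ddx3y, and the part of what marks them in the Fos and Fosb values was not tested. Heat shock genes that rise when tissue is dissociated had a median 0.07 above the group mean in WT GMP replicate 3, 0.19 above it in T2F3 GMP replicate 1 and 0.03 above it in T2F3 MPP replicate 1. Over all libraries the same median ran from -0.32 to 0.19.

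**Figure D4:**
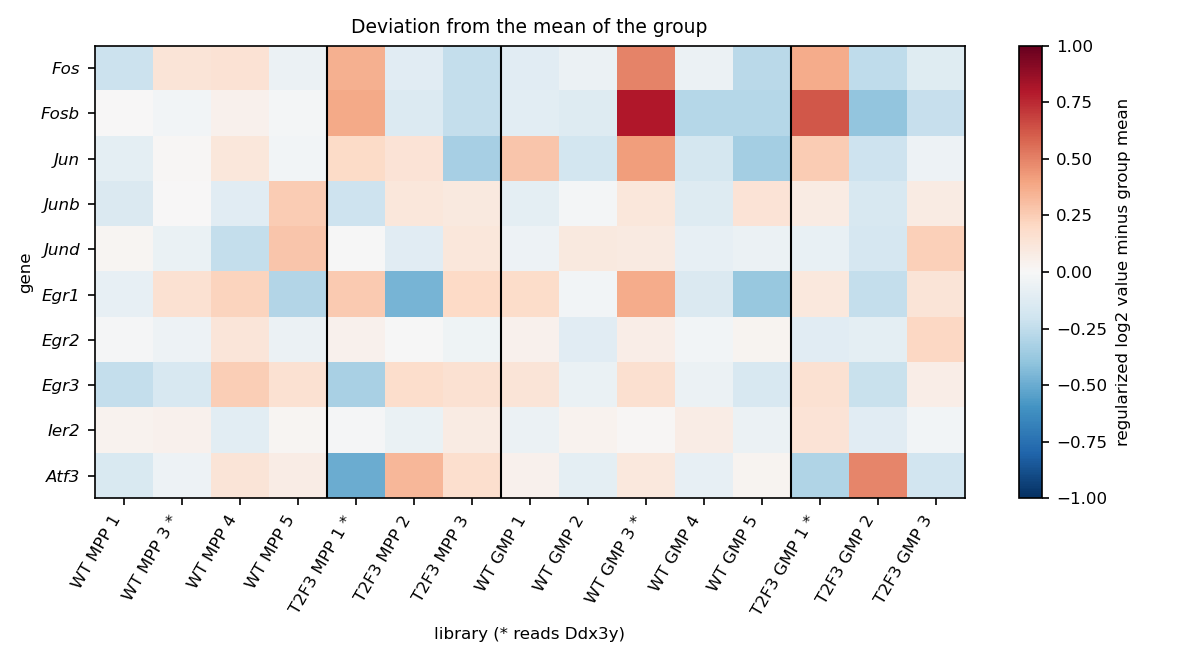
Deviation of each library (columns, with lines between the 4 groups) from its group mean for the 10 genes (rows), in regularized log2 units by color. Asterisks mark the 4 libraries that read Ddx3y. Fos, Fosb and Jun are above the group mean together in WT GMP replicate 3, T2F3 GMP replicate 1 and T2F3 MPP replicate 1, and Atf3 is below it in the latter pair.

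After group means were subtracted, Pearson's r over the 15 libraries was 0.92 between Fos and Fosb, 0.79 between Fosb and Jun and 0.78 between Fos and Jun. Egr1 followed Fos with r = 0.62. Junb and Jund paired with each other at r = 0.54, and with Fos they had r = -0.02 and -0.05. Atf3 and Fos had r = -0.45. These are descriptions: the libraries share a normalization, and 3 of them hold the highest Fos and Fosb values of their groups. The genes outside the set whose profiles over the 15 libraries were most like the mean of the 6 tested genes were Mras (r = 0.76), Cyp4v3 (0.75), Itgb5 (0.73), Fggy (0.70) and Ehhadh (0.70). After group means were subtracted they were Clec11a (0.76), Gbp2 (0.75), Slc24a3 (0.75), Ddx3y (0.74) and Snx33 (0.74).

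Of the rest of the AP-1 and ATF family, BATF genes had the largest genotype differences. Of 17 tested, 2 were higher and 2 lower in T2F3 MPP (median -0.08), where 20.7% and 19.6% of all genes were. In GMP 2 were higher and none lower (median 0.01), where 9.25% and 6.04% of all genes were. The 2 higher genes were Batf3 and Batf2 in both populations. Batf3, which some dendritic cells need for their development, is also in the marker list above. It rose by 2.39 ± 0.22 in MPP (5.26-fold) and by 2.30 ± 0.21 in GMP. Its GMP mean was 4.03 ± 0.09 (SD, n = 5) in WT and 6.32 ± 0.43 (SD, n = 3) in T2F3. Batf2, an interferon-responsive relative, rose by 0.76 ± 0.13 and 0.61 ± 0.12. It lay close to the minimum mean of 4, with 4.14 in WT MPP and 3.67 in WT GMP. Its T2F3 means, which helped it pass, were 4.90 in MPP and 4.28 in GMP. Between populations Fosl2, a Fos-related subunit, was higher in GMP by 0.78 ± 0.14 in WT and 1.17 ± 0.17 in T2F3. In WT 6 of the 17 were higher and 3 lower in GMP, where 25.4% and 23.2% of all genes were, with Atf5 at 0.60 ± 0.11. In T2F3 5 were higher and 2 lower, where 10.5% and 11.7% of all genes were, with Jdp2 at 0.71 ± 0.14. Of the 2 EGR partners and repressors tested, Nab2 was lower in T2F3 MPP by -0.40 ± 0.15 (adjusted p = 0.0452), where 19.6% of all genes were. In WT, Nab2 was lower in GMP than in MPP by -0.71 ± 0.13, where 23.2% of all genes were. The other gene was called in neither comparison, with differences of 0.19 and 0.045.

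Among 28 other immediate early and primary response genes tested, more moved up than down with genotype. In MPP 13 were higher and 6 lower (median 0.23), where 20.7% and 19.6% of all genes were. In GMP 10 were higher and 1 lower (median 0.30), where 9.25% and 6.04% of all genes were. The genes higher in both were 7: Ier5, Btg1, Btg2, Klf2, Klf6, Trib1 and Mcl1. Myc was lower in both, and none was called in opposite directions. Ier5, a relative of Ier2, rose by 1.26 ± 0.10 in MPP (2.40-fold) and 1.02 ± 0.09 in GMP (2.03-fold). Btg2, an antiproliferative gene, rose by 0.96 ± 0.13 in MPP, and Klf2, a zinc finger factor of quiescence, by 1.05 ± 0.14 in GMP. For 3 of the 28 genes the genotype effects differed between populations, where they did for 2.26% of all genes. Among the 3, Gadd45b, a stress gene, differed by -0.84 ± 0.17 (adjusted p = 0.0167), and Zfp36, which destabilizes inflammatory mRNAs, by 0.62 ± 0.13 (adjusted p = 0.0246). In the step from MPP to GMP 14 of 28 were lower and 3 higher in WT, where 23.2% and 25.4% of all genes were, among them Zfp36l1 at -1.72 ± 0.13 and Rhob at 1.20 ± 0.09. In T2F3 8 were lower and 3 higher, where 11.7% and 10.5% of all genes were, with Rhob at 0.85 ± 0.11 and Dusp2 at -0.82 ± 0.14.

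**Figure D5:**
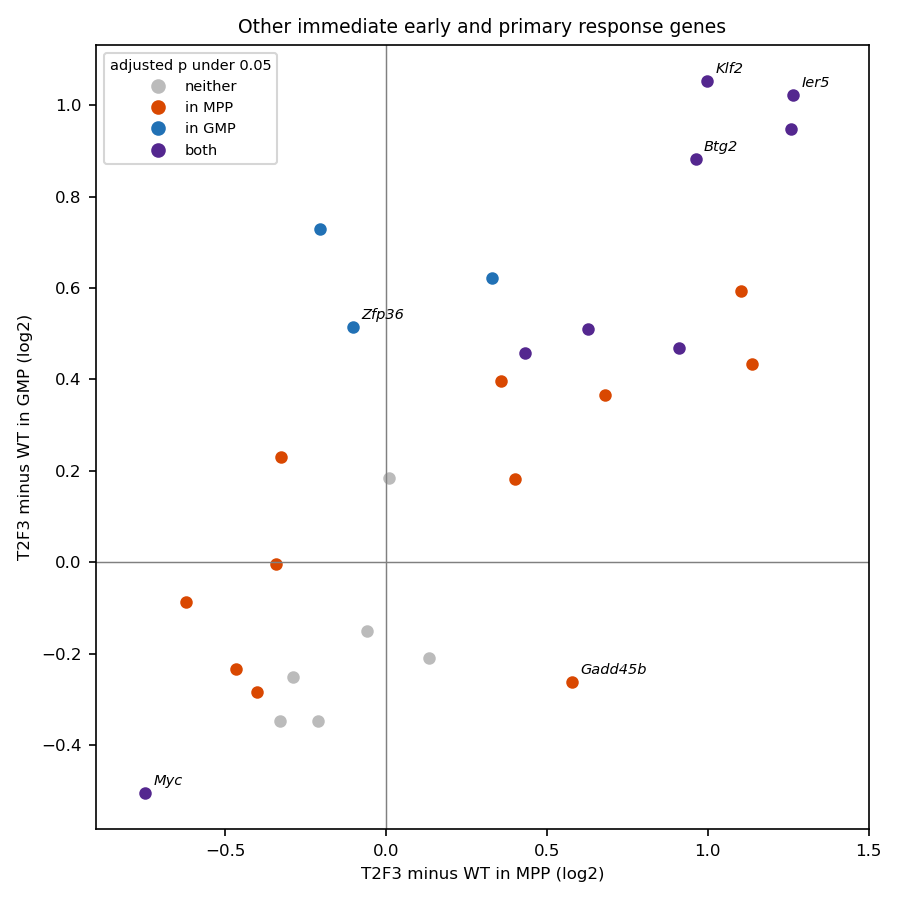
T2F3 minus WT in regularized log2 expression in MPP (horizontal axis) and GMP (vertical axis) for the 28 other immediate early and primary response genes tested, colored by where the adjusted p was under 0.05. Upper right are the 7 genes higher in both populations, among them Ier5 at 1.26 and 1.02, and Myc is the gene lower in both.

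Upstream of these genes, 3 of 21 MAP kinase cascade genes were higher and 4 lower in T2F3 MPP (median -0.08), where 40.3% of all genes were called, with Map2k1, which encodes MEK1, at 0.47 ± 0.10 and Rps6ka5, which encodes the histone kinase MSK1, at -0.39 ± 0.09. In GMP 1 was lower, where 15.3% of all genes were called: Map2k2 at -0.38 ± 0.12 (adjusted p = 0.0476). Mapk3, which encodes an ERK kinase, differed between genotypes by -0.01 ± 0.12 in MPP and by -0.04 ± 0.11 in GMP, neither called. It was higher in GMP than in MPP by 0.66 ± 0.10 in WT and 0.64 ± 0.13 in T2F3. Of the 7 SRF, ternary complex and MRTF genes, Elk4 (-0.48 ± 0.09) and Elk3 (-0.40 ± 0.12) were lower in T2F3 MPP, where 19.6% of all genes were. None was called in GMP. Of 10 feedback genes tested, 3 were higher and 5 lower in each population, and they were the same 8 genes. Of all genes, 40.3% were called in MPP and 15.3% in GMP. Dusp6, the phosphatase of ERK, fell by 1.76 on the log2 scale in MPP (SE 0.21, 3.40-fold lower), and Dusp5, a nuclear ERK phosphatase, rose by 1.26 ± 0.16 in MPP and 1.15 ± 0.15 in GMP. Dusp16, a JNK phosphatase, rose by 0.92 ± 0.11 in GMP. The others, listed here after their values were seen, were Dusp10, which was higher, and Spry2, Spred1, Spred2 and Etv5, which were lower. Heat shock genes gave 1 higher and 2 lower of 12 in T2F3 MPP, where 20.7% and 19.6% of all genes were. In GMP, where 6.04% of all genes were lower, 4 of the 12 were, led by Hsph1 at -1.02 ± 0.17 and Dnaja1 at -0.56 ± 0.13.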

How the data were processed

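The labels' protocols give a stranded kit for the mRNA libraries. What the authors deposited is a table of log2 values for 24424 Entrez IDs, marked by its name as regularized log. STAR, Bowtie, HOMER and DESeq2 are listed in the submitters' processing notes beside build mm9, with neither versions nor roles, and the settings are not given in the sources used here. Reads of overlapping genes could not be re-assigned, and depth is unknown because the deposited log2 values hold no counts. Symbols came from the NCBI table of GRCm38.p6 (24345 IDs matched). Of the 56 samples, 41 hold 5-hydroxymethylcytosine or input DNA and are not analysed here.

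Group means were fitted to the 15 libraries in 1 model with limma 3.58.1 in R 4.3.3 (lmFit, eBayes with trend and robust), for genes averaging 4 or more. Of 5 contrasts, each was tested two-sided with Benjamini-Hochberg adjustment at 0.05, and intervals are 95%. Levels are group means with the SD over libraries. The fit was tested on simulated data. Alternatives changed the minimum mean, the scaling, the variance model, the libraries and the covariates. The members and gene lists were chosen with earlier results of these data known. Named were all 10 members, the 2 called genes of each list with the smallest p in each comparison, Flt3 and Mapk3, and the 5 genes most like the members by Pearson's r, in 2 ways. Some genes that the rule names are not reported here.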

Additional observations from a re-analysis of the deposited data

Results flagged for a closer look

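In 3 of the 20 groups of 4 or 5 libraries checked for the 10 genes, 1 library lay far from the others (gap over range above Dixon's 95% limit). Chance flags about 1 group in 20. Fos in WT GMP replicate 3 read 6.85, with the next library at 6.30. Fosb in the same library read 3.65, with the next at 2.75. Ier2 in WT MPP replicate 4 read 8.53, below the next at 8.66.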

How the results depend on the processing

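Of the 6 genes that passed the minimum mean, the number called in T2F3 against WT MPP (2 in the report) was 0 against a log2 difference of 0.5, 1 without the 4 libraries that read Ddx3y, 3 with library weights and 0 to 2 with 1 library left out (0 without T2F3 MPP replicate 3). In GMP (1 in the report) it was 0 against 0.5, 0 without the 4 libraries, and 0 to 1 with 1 library left out (0 without T2F3 GMP replicate 3). Without the minimum, 4 of the 10 members were called in MPP and 2 of 10 in GMP. Junb in MPP was then not called after centring or quantile normalization. For the difference of effects, 1 of the 6 was called with library weights (2 of 10 without the minimum) and 0 under the other alternatives. Among all 12133 genes, 1494 passed that test with weights and 274 in the report. Against 0.5, 1 of the 6 was called for the WT step (4 in the report) and 0 for the T2F3 step (3 in the report). Of all genes, 1320 were then called in the WT step (5899 in the report) and 660 in the T2F3 step (2690 in the report). The alternatives based on Ddx3y were chosen after seeing the data. Why these counts moved was not tested, except that dropping the minimum adds 4 genes.

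Differences that changed sign were uncalled in each case. In GMP Fos was -0.11 after quantile normalization, -0.026 with Ddx3y as a covariate and -0.019 without the 4 libraries. Ier2 in GMP was 0.030 with library weights and 0.00034 without 2 libraries with high ribosomal values. For the difference of effects, Fos was 0.070 and Jund -0.027 with weights, Jund -0.042 and Ier2 -0.015 with a ribosomal covariate, and Ier2 -0.062 without the 4 libraries. The WT step of Jun was 0.050 after quantile normalization. With 1 library left out, differences ran from -0.22 to 0.037 for Jun in MPP, from -0.14 to 0.17 for Fos in GMP and from -0.11 to 0.016 for Ier2 in GMP. The differences of effects then ran from -0.087 to 0.12 for Jund and from -0.045 to 0.081 for Ier2. Centring moved the median of all genes by under 0.1, and the share of calls that were higher from 51.3% to 40.2% in MPP, from 60.9% to 74.5% for the difference of effects and from 52.2% to 42.2% in the WT step.

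Same-numbered libraries did not meet the pairing rule (every r over 0.1): r ran from -0.33 to 0.52 between genotypes and from 0.05 to 0.46 between the populations of a genotype, where the Ddx3y libraries also share their numbers. With the number as a replicate block the counts were 2, 1, 0, 4 and 2, where Fos in the T2F3 step was lost (adjusted p = 0.0620). With genotype and number taken as 1 animal they were 2, 1, 0, 4 and 3. Depth is unknown, so low genes (Fosb, Egr2, Egr3, Atf3) carry an unstated counting error.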

Other observations

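Erythroid markers and some lymphoid markers were lower in T2F3 cells. Over all genes tested, 20.7% were higher and 19.6% lower in T2F3 MPP, and 9.25% and 6.04% in T2F3 GMP. Of 7 erythroid markers tested, 7 were lower in T2F3 MPP and 6 in T2F3 GMP, with Gata1, the erythroid master regulator, at -2.45 ± 0.17 and -1.63 ± 0.16 (limma, adjusted p = 5.1e-08 and 2.73e-06). Of 5 B and T lymphoid markers, 3 were lower and 1 higher in T2F3 MPP, with Ebf1, a B lineage factor, at -2.17 ± 0.19 and Lck, a T cell kinase gene, at 1.23 ± 0.14. In GMP 3 were lower and none higher. Ebf1 passed the minimum mean of 4 through its WT libraries, with means of 5.54 in WT MPP and 4.28 in WT GMP. Its means were 3.38 in T2F3 MPP and 3.17 in T2F3 GMP. Neutrophil markers gave 1 lower of 10 in MPP (Cxcr2, -0.63 ± 0.15) and none called in GMP.

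Flt3 itself, which carries the tandem duplication in T2F3 mice, differed by -0.06 ± 0.12 in MPP, which was not called, and was higher in T2F3 GMP by 1.28 ± 0.11, 2.43-fold. The difference of these effects was 1.34 ± 0.17 (adjusted p = 0.000466). Cytosolic ribosomal protein genes were called higher for 61 of 78 in T2F3 MPP, where 20.7% of all genes were. None of the 78 was called higher in T2F3 GMP, where 9.25% of all genes were, and 1 was lower. Within GMP their median lay 0.86 above the group mean in WT replicate 1 and 0.54 above it in T2F3 replicate 2, and neither was a library with high Fos or Fosb.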
